A study of Homo sapiens with 18 samples.

Results

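The threonine and proline transfer RNAs of a human cell line and of the extracellular vesicles it releases were followed here gene by gene. A row was a member when its feature name began with tRNA-Thr- or tRNA-Pro-, which gave 46 genes of the 2462 features in the table, 25 for threonine and 21 for proline. The table holds 622 tRNA features in all, so 576 belong to other isotypes. The cells were HEK293T, an established line of human embryonic kidney origin. Wild type cells, cells of an ATG7-/- line (clone F2) and cells of an ATG12-/- line (clone D9) were each kept without serum for 24 h, and small RNA was sequenced from the cells and from their vesicles. That gives 6 groups of 3 libraries, labelled as biological replicates: wild type, ATG7-/- and ATG12-/- vesicles, and wild type, ATG7-/- and ATG12-/- cells. Serum starvation was common to all 6 groups, including both wild type groups. Each knockout is a single clone, so a difference between genotypes cannot be told apart from a difference between clones. ATG7 and ATG12 belong to the enzyme system that couples LC3 and related proteins to membrane lipids. The labels do not say that the replicates came from separate cultures, so p-values measure the spread between these libraries only.

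A tRNA carries 1 amino acid to the ribosome and reads the messenger RNA codon with its anticodon. Threonyl-tRNA synthetase charges the threonine tRNAs and prolyl-tRNA synthetase charges the proline tRNAs, and several anticodons serve each amino acid. Names give the amino acid, the anticodon in DNA letters, a number for the isodecoder and a number for the gene copy. An isodecoder is a group of tRNA genes whose mature tRNA is the same, and its copies sit at different places in the genome. In an anticodon written with A in its first place, such as AGT or AGG, that base is converted to inosine in the mature tRNA. Vesicles of many cell types are known to carry tRNAs and tRNA fragments.

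By their names, 10 of the 25 threonine genes had the anticodon AGT, 7 CGT, 6 TGT, 1 GGA and 1 GGC, and the 25 formed 22 isodecoders. The GGA and GGC genes had 3 and 5 reads over all libraries and count as threonine genes by name only. The 21 proline genes formed 8 isodecoders, with 10 genes for AGG, 7 for TGG and 4 for CGG. Most threonine isodecoders therefore had 1 gene, whereas Pro-AGG-2 had 8 copies and Pro-TGG-3 had 5. RefSeq places 40 of the 46 genes on the GRCh38.p14 assembly. All 20 placed proline genes span 72 bases, and the placed threonine genes span 72 bases in 3 cases, 73 in 4 and 74 in 13, so levels of different genes compare at nearly equal length. By GENCODE release 29, on the same build, 33 of the 40 lie between annotated genes, 4 in introns and 3 in exons. The exonic genes were Thr-TGT-6-1, in the long non-coding RNA LINC01962 at chr5:181191687-181191758, Pro-CGG-1-3, in the long non-coding RNA LINC00324 at chr17:8222833-8222904, and Thr-AGT-1-2, in the protein-coding gene CTC1 at chr17:8226235-8226308. The isotypes share a locus on chromosome 14, where 4 proline genes lie between 20609336 and 20684087 and 3 threonine genes between 20613790 and 20681762. Genes of both isotypes also lie close together elsewhere. Pro-TGG-3-1 and Thr-TGT-6-1 are 2761 bases apart on chromosome 5, and Pro-CGG-1-3 and Thr-AGT-1-2 are 3330 bases apart on chromosome 17. Chromosome 6 holds 9 of the placed threonine genes and chromosome 16 holds 7 of the proline genes.

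Values are normalised reads, the whole reads of a gene divided by 1 size factor of its library. Between 1188388 and 1804089 reads of a cell library, and between 1881080 and 3382605 of a vesicle library, fell on the features of the table. In cells 1 read was worth 0.477 to 0.824 normalised reads and in vesicles 1.17 to 1.89. Threonine tRNAs took 0.211% ± 0.0112 (SD, n = 3) of the reads in wild type cells and 0.0829% ± 0.000785 (SD, n = 3) in wild type vesicles. Proline tRNAs took 0.882% ± 0.111 (SD, n = 3) and 0.436% ± 0.0138 (SD, n = 3). The deposited scaling and the library totals thus give different pictures of the step from cells to vesicles, and both are given here. Small nuclear and nucleolar RNAs took 70.5% of the reads in wild type cells, 33.3% in wild type vesicles, 13.8% in ATG7-/- vesicles and 33.4% in ATG12-/- vesicles. Of 6 microRNAs typical of blood and liver, 5 were in the table. Their summed level was 1.27 to 11.4 normalised reads in cells, 88.99 to 130.1 in wild type vesicles, 165.8 to 258.6 in ATG7-/- vesicles and 241.3 to 322.6 in ATG12-/- vesicles. The part of these shifts in the tRNA results was not tested. Replicates of a group correlated at 0.971 to 0.994 (Pearson, log2 values, across features). The mRNAs of ATG7 and ATG12 are not analysed here, so the knockouts were not checked.

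Proline tRNAs with the anticodon TGG were the most abundant members. Pro-TGG-3-5 reached 1851, 2208 and 2495 normalised reads in the 3 wild type cell libraries and 4078, 3744 and 3453 in the 3 wild type vesicle libraries. Pro-TGG-3-4, a second copy of this isodecoder 3889 bases away on chromosome 16, had nearly the same values, 1844, 2202 and 2477 in cells and 4020, 3693 and 3417 in vesicles. The highest threonine genes in wild type cells were Thr-TGT-3-1, with 501, 480.2 and 424 normalised reads, and Thr-TGT-4-1, with 422, 436 and 372. At the other end, 4 threonine genes never exceeded 2.65 normalised reads in any library: Thr-AGT-7-1, Thr-CGT-chr1-133, Thr-GGA-chr2-22 and Thr-GGC-chr19-3. These 4 did not reach the filter of 10 normalised reads in at least 3 libraries, so 42 members were tested in vesicles and between vesicles and cells. In cells Thr-CGT-1-1 and Thr-TGT-1-1 also missed it, which left 40.

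**Figure D1:**
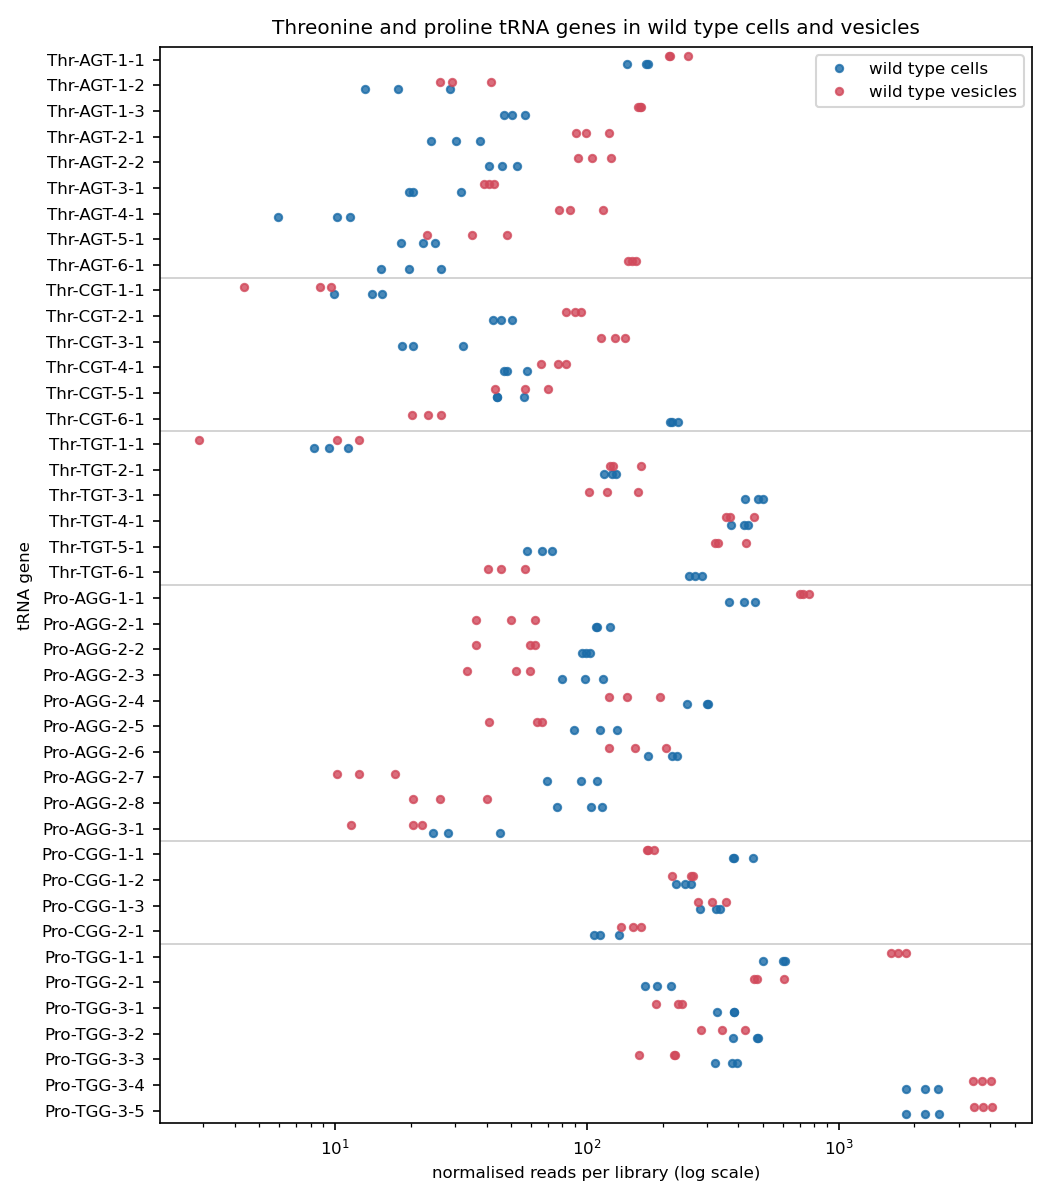
Normalised reads (log axis) of the 42 tested genes in the 3 wild type cell libraries (blue) and the 3 wild type vesicle libraries (red), 1 point per library, grouped by anticodon. Within Thr-CGT and Thr-TGT some genes lie to the left in vesicles and others to the right, for example Thr-TGT-6-1 at 40.5 to 56.9 in vesicles against 254 to 286 in cells, and Thr-TGT-5-1 at 322 to 429 against 57.7 to 72.6.

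Wild type vesicles were set against the wild type cells that released them. This contrast compares relative tRNA levels, and the direction for a gene can depend on the scaling. On the deposited scale the members moved in both directions, with no single direction for an isotype. Of 42 genes tested, 18 were higher in vesicles and 15 were lower at an adjusted p under 0.05 by limma. Across all 905 features tested, 38.9% were called higher and 42.9% lower, 81.8% in either direction, so being called is common in this contrast. The 2 groups of libraries did not overlap for 32 of the 42 members, and for 83.8% of all features. In a bulk sample, fewer vesicles that carry a tRNA and less of it in each vesicle cannot be told apart. Threonine genes had 13 higher and 3 lower of 21, with a median log2 fold of 0.63. Proline genes had 5 higher and 12 lower of 21, with a median of -0.74. These counts and medians weigh each gene copy equally, and 8 of the proline genes are copies of Pro-AGG-2 and 5 of Pro-TGG-3. With copies averaged and isodecoders summed, proline stood at 2899 ± 333 (SD, n = 3) normalised reads in wild type cells and 5109 ± 394 in wild type vesicles. Threonine stood at 1944 ± 97.3 and 2027 ± 173. Medians over genes and summed levels thus order the isotypes differently. The median over all features was -0.13, and that over the 447 other tRNA features tested was 0.63. With libraries scaled to their totals instead, the all-feature median was displaced by -1.51. Then 4 members were called higher and 33 lower, against 151 higher and 629 lower of all 905 features. The 4 were Thr-AGT-4-1, Thr-AGT-6-1, Thr-CGT-3-1 and Thr-TGT-5-1.

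All 9 tested Thr-AGT genes were higher in wild type vesicles on the deposited scale, but with library totals Thr-AGT-4-1 and Thr-AGT-6-1 alone kept that call and 4 of the 9 were called lower. Thr-AGT-4-1 stood at 11.5, 5.94 and 10.2 normalised reads in the cell libraries and at 116, 77.4 and 86.1 in the vesicle libraries. Every vesicle library lay above every cell library. The log2 fold was 3.23 (SE 0.26, adjusted p = 1.37e-10), and 1.79 with library totals. Thr-AGT-6-1, on chromosome 6 at 27162271 to 27162344, showed 19.7, 15.2 and 26.3 in cells and 146, 156 and 152 in vesicles. Its log2 fold was 2.86 (SE 0.30, adjusted p = 1.21e-08), and 1.38 with library totals. Both genes were called higher under each of the 17 alternatives run, 6 of which left out 1 library. The other representatives of this anticodon had smaller values. Thr-AGT-1-1, the gene with the most reads among them, rose by a log2 fold of 0.47 (SE 0.16, adjusted p = 0.00916). This call was lost without wild type cell replicate 1 (0.38, adjusted p = 0.0531), and the value became -1.04 with library totals. Thr-AGT-2-2 had a log2 fold of 1.18 (SE 0.19), which became -0.32 with library totals. Thr-AGT-3-1 had 0.78 (SE 0.27), which lost its call without wild type cell replicate 1 (0.66, adjusted p = 0.0532) and became -0.69 with library totals. Thr-AGT-5-1 had 0.63 (SE 0.26), with overlapping groups. Its call was lost without wild type cell replicate 1 (0.64, adjusted p = 0.055), wild type cell replicate 3 (0.51, adjusted p = 0.118), wild type vesicle replicate 2 (0.38, adjusted p = 0.21) or wild type vesicle replicate 3 (0.61, adjusted p = 0.0685).

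Thr-CGT split within the anticodon. Thr-CGT-6-1 was the leading gene of this anticodon in wild type cells, with 215, 218 and 230 normalised reads, and fell to 20.2, 23.5 and 26.3 in vesicles. The log2 fold was -3.20 (SE 0.22, adjusted p = 8.97e-12), the lowest of the 42 members. Thr-CGT-3-1 went the other way, from 18.5, 20.4 and 32.1 in cells to 142, 130 and 114 in vesicles. Its log2 fold was 2.43 (SE 0.21, adjusted p = 6.44e-10), and 0.94 with library totals. Both directions held under each of the 17 alternatives run. Within a library the shares of an anticodon do not depend on its scaling. Thr-CGT-6 made up 54.8% ± 1.1 (SD, n = 3) of the Thr-CGT reads in wild type cells and 6.13% ± 0.728 in wild type vesicles. The share of Thr-CGT-3 went from 5.86% ± 1.71 to 33.8% ± 4.26. Thr-CGT-2-1 rose by a log2 fold of 0.94 (SE 0.17, adjusted p = 3.79e-05), which became -0.56 with library totals. Thr-CGT-4-1 had 0.55 (SE 0.19, adjusted p = 0.0122), a call lost when wild type vesicle replicate 2 was left out (0.48, adjusted p = 0.0505), and it turned to -0.94 with library totals. Thr-CGT-5-1 (0.22, SE 0.21) and Thr-CGT-1-1 (-0.76, SE 0.38) did not pass the test, though without wild type vesicle replicate 2 Thr-CGT-1-1 did (-0.94, adjusted p = 0.0489).

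Thr-TGT, the main threonine anticodon, split in the same manner. Thr-TGT-5-1, at chr14:20681690-20681762, stood at 66.3, 72.6 and 57.7 normalised reads in wild type cells and at 429, 332 and 322 in wild type vesicles. It rose by a log2 fold of 2.44 (SE 0.15, adjusted p = 1.74e-12), and by 0.93 with library totals. Thr-TGT-3-1, in the same locus at chr14:20613790-20613862, fell from 501, 480.2 and 424 to 159, 120.3 and 102. This log2 fold was -1.89 (SE 0.16, adjusted p = 2.52e-10). Thr-TGT-6-1, the gene in an exon of LINC01962, fell from 286, 269.8 and 254 to 40.5, 45.6 and 56.9, a log2 fold of -2.49 (SE 0.18, adjusted p = 1.57e-11). For all 3 genes the cell and vesicle libraries did not overlap and the call held under each of the 17 alternatives. Thr-TGT-4-1 (-0.06, SE 0.13) and Thr-TGT-2-1 (0.14, SE 0.15) did not pass the test on the deposited scale. With library totals they were at -1.57 and -1.36. As a share of the Thr-TGT reads, Thr-TGT-5 went from 4.85% ± 0.302 (SD, n = 3) in wild type cells to 33.4% ± 0.601 in wild type vesicles. Thr-TGT-6 went from 20.05% ± 0.636 to 4.53% ± 1.32 and Thr-TGT-3 from 34.7% ± 0.603 to 11.7% ± 1.08. Thr-TGT-1-1 was close to the filter, at 8.28 to 11.2 in wild type cells and 2.89 to 12.4 in wild type vesicles.

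Proline genes divided by isodecoder and by copy. Pro-TGG-1-1, at chr14:20633006-20633077, rose from 499, 612 and 604 normalised reads in wild type cells to 1852, 1728 and 1615 in wild type vesicles. The log2 fold was 1.60 (SE 0.16, adjusted p = 3.70e-09), which shrank to 0.08 (adjusted p = 0.661) with library totals. Pro-TGG-2-1, on chromosome 11, rose from 171, 191 and 216 to 609, 473 and 460, a log2 fold of 1.41 (SE 0.15, adjusted p = 1.39e-08), which became -0.11 with library totals. Pro-AGG-1-1, in an intron of the antisense RNA AJ003147.2 on chromosome 16, rose from 367, 419.5 and 467 to 763, 722 and 700.3. That log2 fold of 0.81 (SE 0.13) became -0.71 with library totals. Pro-TGG-3-5 had 0.79 (SE 0.15) on the deposited scale and -0.73 with library totals, so its direction depends on the scaling. Of the 8 copies of Pro-AGG-2, 7 were called lower, all but Pro-AGG-2-6 (-0.38, SE 0.18, adjusted p = 0.0554), whose cell and vesicle libraries overlapped. Pro-AGG-2-4, its gene with the most reads, went from 249, 299 and 303 to 195, 144 and 122.5, a log2 fold of -0.90 (SE 0.18, adjusted p = 7.69e-05), and was called lower under each of the 17 alternatives. Pro-AGG-3-1 had -0.82 (SE 0.34), a call lost without wild type cell replicate 3 (-0.56, adjusted p = 0.178) or wild type vesicle replicate 1 (-0.54, adjusted p = 0.173). Pro-CGG-1-3 (-0.0008, SE 0.14) and Pro-CGG-2-1 (0.36, SE 0.17, adjusted p = 0.0566) did not pass the test. Pro-CGG-2-1 passed it without wild type cell replicate 3 (0.46, adjusted p = 0.0327) and without wild type vesicle replicate 1 (0.43, adjusted p = 0.0401).

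**Figure D2:**
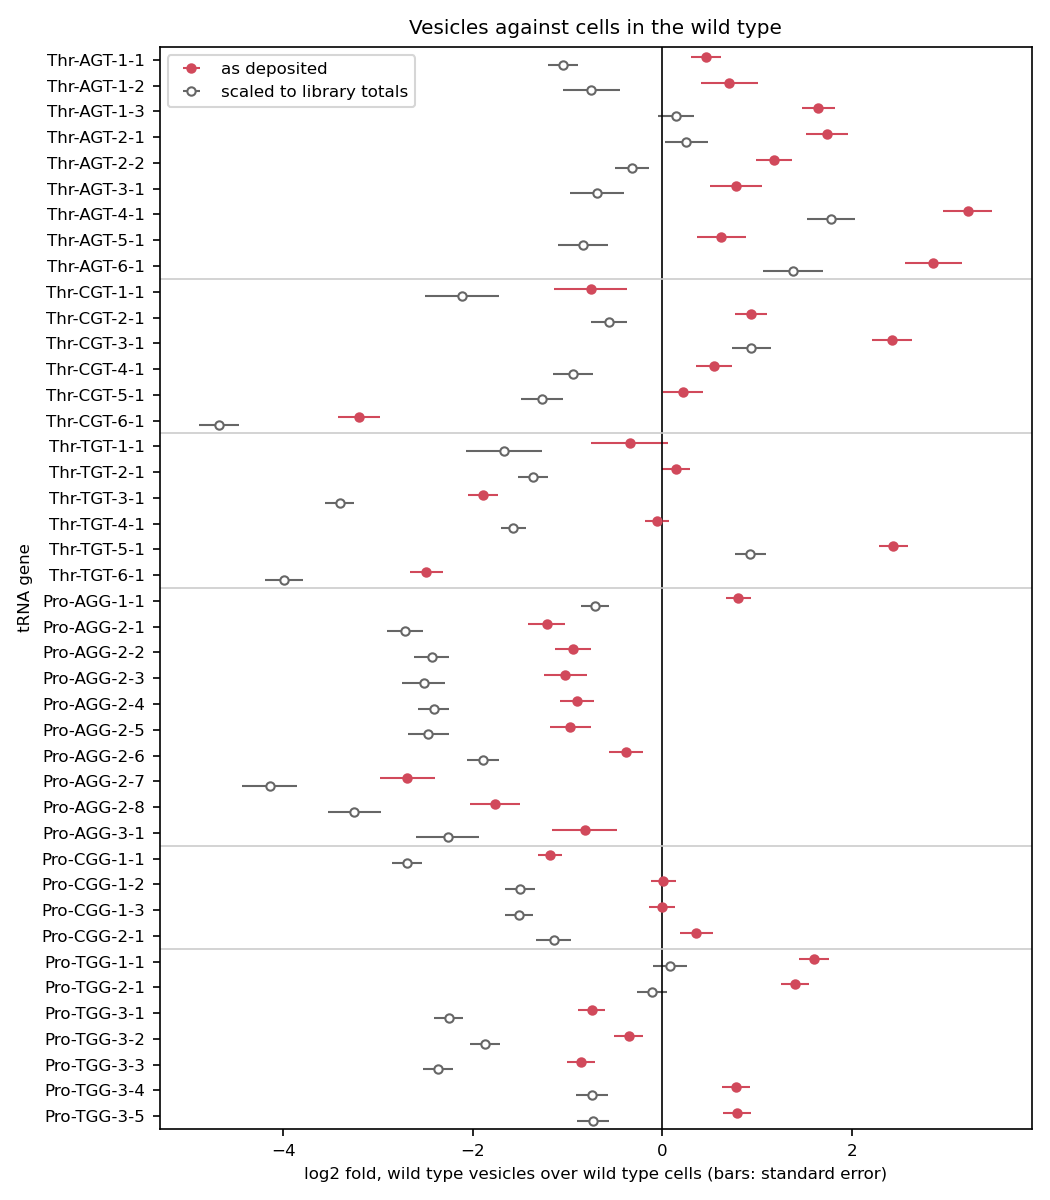
Log2 fold of wild type vesicles over wild type cells for the 42 tested genes (points, with the standard error as a bar), on the deposited scale (red) and with libraries scaled to their totals (grey, open), grouped by anticodon. The second scaling moves the points to the left, and Thr-AGT-4-1, Thr-AGT-6-1, Thr-CGT-3-1 and Thr-TGT-5-1 remain called higher in vesicles.

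Copies of 1 isodecoder did not always have the same values, although their mature tRNA is the same. How reads that match several copies were assigned is not given in the sources used here, and reads shorter than a tRNA can also come from sequence that flanks a gene. The following copies were chosen after their values were seen. Of the 5 copies of Pro-TGG-3, the pair on chromosome 16 described above was higher in wild type vesicles on the deposited scale. Pro-TGG-3-1, on chromosome 5, fell from 330, 385 and 383 normalised reads in cells to 239, 231 and 188 in vesicles, a log2 fold of -0.74 (SE 0.14, adjusted p = 6.42e-05). Pro-TGG-3-3, on chromosome 16 at 3158922 to 3158993, fell from 323, 394 and 377 to 224, 223 and 160.5, a log2 fold of -0.86 (SE 0.15, adjusted p = 1.60e-05). Both copies were called lower under each of the 17 alternatives. Pro-TGG-3-2 had -0.35 (SE 0.15), a call lost without wild type cell replicate 2 (-0.29), wild type cell replicate 3 (-0.31), wild type vesicle replicate 2 (-0.35) or wild type vesicle replicate 3 (-0.21). The mean of the highest copy, Pro-TGG-3-5, was 5.99 times that of Pro-TGG-3-3 in wild type cells and 18.6 times in wild type vesicles. The corresponding spread among the 8 copies of Pro-AGG-2 was 3.11 times in cells, from Pro-AGG-2-4 to Pro-AGG-2-7, and 12.1 times in vesicles, from Pro-AGG-2-6 to Pro-AGG-2-7. Pro-AGG-2-7, 1 of the 7 copies called lower, fell from 69.4, 109.5 and 94.9 to 17.3, 12.4 and 10.2. Its log2 fold was -2.69 (SE 0.29, adjusted p = 1.89e-08), and its wild type vesicle values rest on 12, 9 and 7 reads. Pro-CGG-1-1 fell by 1.18 (SE 0.13, adjusted p = 2.36e-08), while Pro-CGG-1-2 (0.01, SE 0.13) and Pro-CGG-1-3 did not pass the test.

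To compare isotypes and anticodons without any scaling between libraries, the copies of an isodecoder were averaged and each anticodon was taken as a share of the summed level of its isotype. These are shares of the copy-averaged level, not of reads. Vesicles and cells were then compared within each genotype by an exact permutation test over all 18 libraries, two-sided, with Benjamini-Hochberg adjustment over the 21 tests of the family. Its smallest possible p is 0.00025, from 8000 arrangements. The vesicles held relatively more Thr-AGT and less Thr-TGT among threonine tRNAs, and relatively more Pro-TGG and less Pro-CGG among proline tRNAs. Thr-AGT rose from 9.92% ± 0.221 (SD, n = 3) of the copy-averaged threonine level in wild type cells to 28.0% ± 1.14 in wild type vesicles. With every gene summed, which gives shares of reads, it was 18.1% ± 0.375 and 39.6% ± 1.09. In ATG7-/- libraries it went from 11.1% ± 1.17 to 24.3% ± 0.490, and in ATG12-/- libraries from 9.73% ± 0.762 to 22.0% ± 2.44. Over the 3 genotypes the log2 difference was 1.27 (exact permutation adjusted p = 0.00105). Thr-TGT went from 69.3% ± 1.62 to 53.1% ± 3.12 in the wild type, a log2 difference of -0.28 over the genotypes (exact permutation adjusted p = 0.00105). Thr-CGT differed less, 20.8% ± 1.44 against 18.9% ± 1.97 in the wild type and -0.20 over the genotypes (exact permutation adjusted p = 0.0165).

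Within proline, Pro-CGG fell from 15.2% ± 0.752 (SD, n = 3) of the copy-averaged proline level in wild type cells to 7.82% ± 0.475 in wild type vesicles. As a share of reads, with every gene summed, it was 12.2% ± 0.827 and 7.05% ± 0.273. It stood at 16.04% ± 0.834 and 7.27% ± 0.0532 in ATG7-/- cells and vesicles, and at 14.7% ± 1.22 and 6.95% ± 0.0743 in ATG12-/- cells and vesicles. The log2 difference over the genotypes was -1.06 (exact permutation adjusted p = 0.00105). Pro-TGG rose from 64.5% ± 0.569 to 76.2% ± 0.847 in the wild type, 0.23 over the genotypes (exact permutation adjusted p = 0.00105). Pro-AGG fell from 20.3% ± 0.440 to 16.01% ± 0.373, -0.25 over the genotypes (exact permutation adjusted p = 0.00175). These 6 anticodon differences kept their sign and their call under every alternative run for them. With copies averaged, the summed threonine level over the summed proline level was 0.679 ± 0.109 (SD, n = 3) in wild type cells and 0.397 ± 0.00756 in wild type vesicles, a log2 difference of -0.75 over the genotypes (exact permutation adjusted p = 0.00105). The size of that difference depended on the weighting of copies and isodecoders. With every gene summed, the ratio was 0.243 ± 0.0402 in wild type cells and 0.19 ± 0.00472 in wild type vesicles, -0.39 over the genotypes (exact permutation adjusted p = 0.00225). With the mean log2 over isodecoders in place of the sum, the difference was -0.00079 (exact permutation adjusted p = 0.992).

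**Figure D3:**
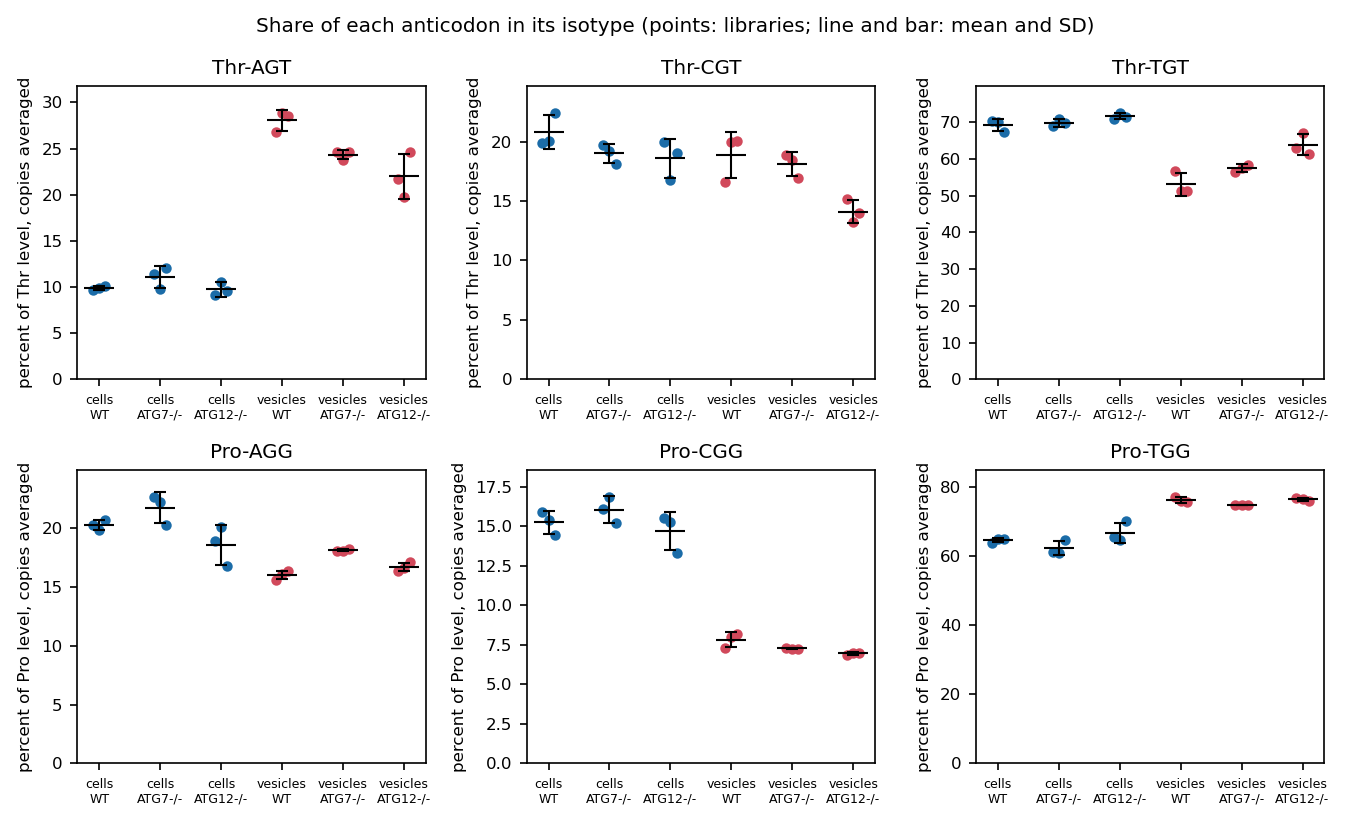
Percent of the summed threonine or proline level, with copies of an isodecoder averaged, held by each anticodon in the 6 groups (points: single libraries, cells in blue and vesicles in red; line and bar: mean and SD of 3 libraries). Thr-AGT lies at 9.09% to 12.02% in the cell libraries and at 19.7% to 28.9% in the vesicle libraries, and Pro-CGG at 13.3% to 16.9% and 6.87% to 8.19%.

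Vesicles of the knockouts, each a single clone, were compared with wild type vesicles. On the deposited scale most proline genes were higher in both knockouts, while most threonine genes did not pass the test. Both comparisons use the same 3 wild type vesicle libraries and are therefore not independent. In ATG7-/- vesicles 19 of 42 members were called higher and 1 lower, against 33.5% higher and 28.9% lower among the 850 features tested, 62.5% in either direction. Groups did not overlap for 24 members, and for 68% of all features. In ATG12-/- vesicles the counts were also 19 and 1, against 22.6% higher and 21.1% lower, 43.6% in either direction. Here 21 members had groups apart, and 52.7% of all features. Proline genes were called higher in 16 of 21 cases in ATG7-/- vesicles, with a median log2 fold of 0.64, and in 15 of 21 in ATG12-/- vesicles, with a median of 0.56. The 21 genes form 8 isodecoders, whose copies are counted separately here and are not independent. With 1 copy per isodecoder, 10 genes of both isotypes were called in either direction in ATG7-/- vesicles and 10 in ATG12-/- vesicles. The medians over all features were 0.11 and 0.05, and those over other tRNA features 0.48 and 0.15. These counts depend on the scaling: with library totals 3 members were called higher and 3 lower in ATG7-/- vesicles, and 5 and 3 in ATG12-/- vesicles. Of all 850 features, 148 were then called higher and 318 lower in ATG7-/- vesicles, and 87 and 305 in ATG12-/- vesicles. Scaling by trimmed means (TMM) over microRNAs left 1 higher and 2 lower in ATG7-/- vesicles, and 3 and 2 in ATG12-/- vesicles. Of all 850 features it left 129 higher and 303 lower in ATG7-/- vesicles, and 53 and 288 in ATG12-/- vesicles.

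Pro-TGG-2-1 stood at 609, 473 and 460 normalised reads in the wild type vesicle libraries, at 848, 843 and 843 in ATG7-/- vesicles and at 866, 815 and 879 in ATG12-/- vesicles. The knockout libraries all lay above the wild type libraries. The log2 fold was 0.73 in ATG7-/- (SE 0.13, adjusted p = 0.000249) and 0.74 in ATG12-/- vesicles (SE 0.13, adjusted p = 0.000471). The first held under each of the 17 alternatives, between 0.35 and 0.86, and the second lost its call with TMM factors over microRNAs (0.36, adjusted p = 0.0562). Pro-AGG-1-1 had 763, 722 and 700.3 in wild type vesicles, 1204, 1155 and 1195 in ATG7-/- vesicles and 1027, 1062 and 1135 in ATG12-/- vesicles. Its log2 fold was 0.70 (SE 0.11, adjusted p = 6.93e-05) and 0.56 (SE 0.11, adjusted p = 0.000868), and with TMM factors over microRNAs 0.33 (adjusted p = 0.0747) and 0.17 (adjusted p = 0.354). With library totals the ATG12-/- value was 0.20 (adjusted p = 0.202). Pro-TGG-1-1 rose by 0.42 (SE 0.10) in ATG7-/- and 0.46 (SE 0.10) in ATG12-/- vesicles, which fell to 0.04 and 0.10 with library totals. Pro-TGG-3-5 rose by 0.44 (SE 0.10) and 0.41 (SE 0.10), which fell to 0.06 and 0.06. Pro-CGG-1-3 rose by 0.49 (SE 0.14) and 0.47 (SE 0.14), values of 0.11 and 0.11 with library totals. The ATG12-/- call of Pro-CGG-1-3 was lost without wild type vesicle replicate 3 (0.37, adjusted p = 0.0645) or ATG12-/- vesicle replicate 3 (0.41, adjusted p = 0.0667).

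The threonine genes that changed in knockout vesicles were mostly Thr-TGT genes. Thr-TGT-6-1 fell in both. It stood at 40.5, 45.6 and 56.9 normalised reads in wild type vesicles, at 29.01, 25.7 and 22.5 in ATG7-/- vesicles and at 24.8, 30.5 and 28.3 in ATG12-/- vesicles. Every knockout library was below every wild type library. The log2 fold was -0.86 in ATG7-/- (SE 0.23, adjusted p = 0.00484) and -0.74 in ATG12-/- vesicles (SE 0.23, adjusted p = 0.0169). The first was called in each of the 16 alternatives that tested the gene. The second lost its call without wild type vesicle replicate 3 (-0.61, adjusted p = 0.0794), without ATG12-/- vesicle replicate 1 (-0.67, adjusted p = 0.0528) and without the filter on low values (adjusted p = 0.0872). Thr-TGT-5-1 rose, from 429, 332 and 322 in wild type vesicles to 497, 519.7 and 483 in ATG7-/- vesicles and 648, 676 and 592 in ATG12-/- vesicles. Thr-TGT-4-1 rose from 463, 369 and 356 to 517, 566 and 512 in ATG7-/- and to 669, 692 and 651 in ATG12-/- vesicles. In ATG12-/- vesicles the log2 folds were 0.83 (SE 0.14, adjusted p = 0.000342) for Thr-TGT-5-1 and 0.77 (SE 0.13, adjusted p = 0.000429) for Thr-TGT-4-1, and both were called under each of the 17 alternatives. In ATG7-/- vesicles they were 0.48 (SE 0.14) and 0.43 (SE 0.13), which fell to 0.10 and 0.06 with library totals and lost their calls with TMM factors.

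Thr-TGT-2-1 rose by 0.66 (SE 0.15, adjusted p = 0.00341) in ATG12-/- vesicles and had 0.23 (SE 0.15, adjusted p = 0.21) in ATG7-/- vesicles. The latter was called when wild type vesicle replicate 1 was left out (0.36, adjusted p = 0.0393). With library totals the values were 0.31 in ATG12-/- and -0.14 in ATG7-/- vesicles. Thr-TGT-3-1 had 0.54 (SE 0.18, adjusted p = 0.0261) in ATG12-/- vesicles, a call lost without any 1 of 5 libraries, at 0.39 to 0.56: wild type vesicle replicates 2 and 3 and ATG12-/- vesicle replicates 1, 2 and 3. In ATG7-/- vesicles it had 0.32 (SE 0.18, adjusted p = 0.144), which was called without wild type vesicle replicate 1 (0.49, adjusted p = 0.017). Among the 9 Thr-AGT and 6 Thr-CGT genes tested, Thr-AGT-1-1 alone was called, in ATG7-/- vesicles (0.35, SE 0.14, adjusted p = 0.0472). That call was lost without wild type vesicle replicate 2 or 3 or ATG7-/- vesicle replicate 1 or 3 (0.30 to 0.32), and the value was -0.03 with library totals. Thr-AGT-4-1 and Thr-AGT-6-1, the genes most raised in vesicles over cells, were at -0.26 (SE 0.20) and -0.01 (SE 0.14) in ATG7-/- vesicles and 0.04 (SE 0.20) and -0.05 (SE 0.14) in ATG12-/- vesicles. With library totals both genes were called lower in ATG7-/- vesicles.

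**Figure D4:**
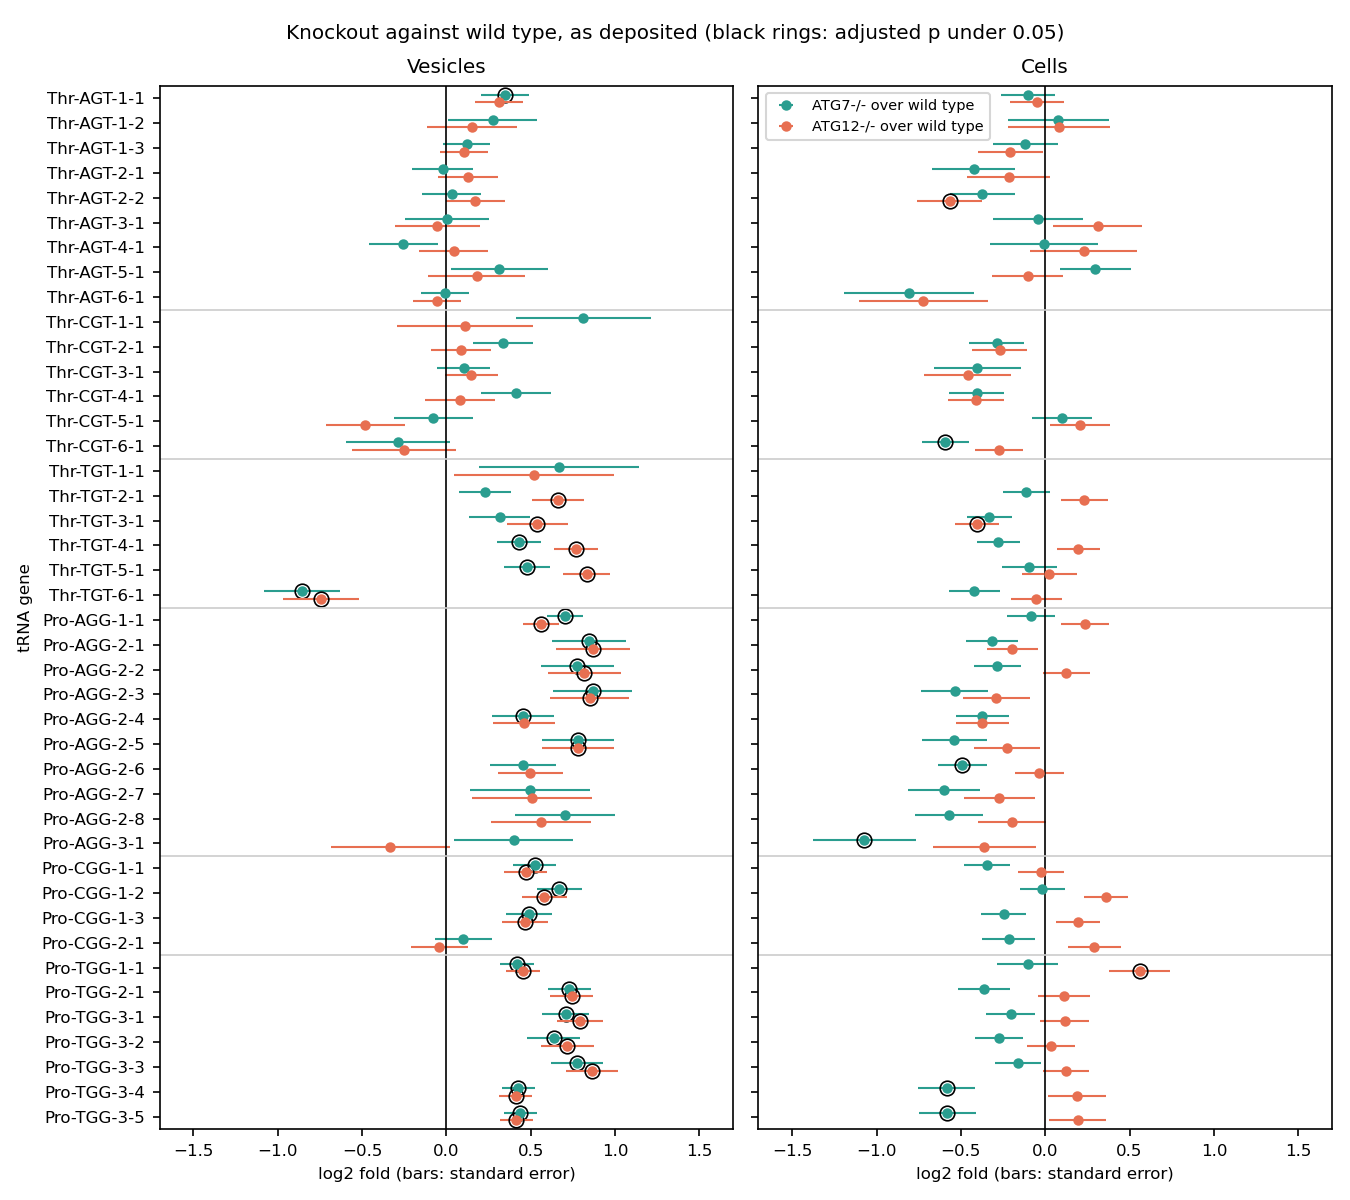
Log2 fold of ATG7-/- (green) and ATG12-/- (orange) over the wild type for each tested gene, in vesicles (left) and in cells (right), on the deposited scale, with standard errors as bars and a black ring where the adjusted p by limma was under 0.05. In vesicles the proline genes lie mostly to the right of 0, 16 of 21 called in ATG7-/- and 15 of 21 in ATG12-/-, and Thr-TGT-6-1 lies to the left in both.

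The anticodon shares gave a test of the knockout vesicles that does not depend on scaling. ATG7-/- and ATG12-/- vesicles together, 6 libraries, were compared with the 3 wild type vesicle libraries by an exact permutation test within the same family of 21 tests, with 84 arrangements and a smallest possible p of 0.0119. The share of Thr-AGT fell from 28.0% ± 1.14 (SD, n = 3) to 24.3% ± 0.490 and 22.0% ± 2.44, a log2 difference of -0.28 (exact permutation adjusted p = 0.0313). This call was lost without wild type vesicle replicate 1 (-0.31), 2 (-0.26) or 3 (-0.27), each at an exact permutation adjusted p of 0.136, and with every gene summed (-0.20, exact permutation adjusted p = 0.075). Leaving out a wild type library leaves fewer than 84 arrangements, and the smallest possible p rises. The loss of the call in those fits therefore cannot tell a weaker difference from a coarser test. Thr-TGT went from 53.1% ± 3.12 to 57.5% ± 1.01 in ATG7-/- and 63.9% ± 2.87 in ATG12-/- vesicles, 0.19 (exact permutation adjusted p = 0.0682), which did not pass. Pro-AGG (0.12) and Pro-CGG (-0.14) both had an exact permutation adjusted p of 0.05 and were not called. With every gene summed Pro-AGG was called (0.14, exact permutation adjusted p = 0.0313). Without ATG7-/- vesicle replicate 1 Pro-CGG was called. Thr-CGT (-0.24), Pro-TGG (-0.01) and the ratio of threonine to proline (-0.15, exact permutation adjusted p = 0.115) did not pass either. The test pools the 2 knockouts, which differed for some ratios. Thr-CGT stood at -0.055 in ATG7-/- and -0.42 in ATG12-/- vesicles. Its share was 13.2% to 15.1% in ATG12-/- and 16.6% to 20.1% in wild type vesicles. Pro-AGG stood at 0.18 and 0.06, Pro-CGG at -0.10 and -0.17, and the threonine to proline ratio at -0.25 and -0.05. These ratios were not tested for each knockout alone. In cells none of the 7 ratios was called, and 1 of the 7 had an unadjusted p under 0.05, Thr-CGT at -0.14 (exact permutation p = 0.0476, adjusted p = 0.0833).

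ATG12-/- vesicles were also set directly against ATG7-/- vesicles. Of 42 members 3 were called higher in ATG12-/-, all of them Thr-TGT genes, against 26.6% higher and 23.3% lower among all 850 features, 49.9% in either direction. The 2 groups were apart for 6 members and for 58.7% of all features. Thr-TGT-2-1 differed by 0.43 (SE 0.15, adjusted p = 0.0344), Thr-TGT-5-1 by 0.35 (SE 0.14, adjusted p = 0.0479) and Thr-TGT-4-1 by 0.33 (SE 0.13, adjusted p = 0.0484). With any 1 of the 6 libraries left out, 0 members were called, except that 1 was called without ATG7-/- vesicle replicate 3. The replicate block also left 0. For the 21 proline genes limma called 0 in either direction, as did edgeR and DESeq2, and 0 had an unadjusted p under 0.05. Their differences lay between -0.73, for Pro-AGG-3-1, and 0.09, and Pro-TGG-3-5 differed by -0.02 (SE 0.10). Of the 425 other tRNA features tested, 8 were called higher and 188 lower in ATG12-/- vesicles.

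Knockout cells were compared with wild type cells in the same way, and few members were called. In ATG7-/- cells 5 of 40 members were called lower and limma called 0 higher, as did edgeR and DESeq2, with 0 higher at an unadjusted p under 0.05. Among the 853 features tested 8.32% were lower and 8.44% higher, 16.8% in either direction. Groups were apart for 19 of the 40 members and 35.2% of all features. Thr-CGT-6-1 fell from 215, 218 and 230 normalised reads in wild type cells to 153, 154 and 133 in ATG7-/- cells, with no overlap, a log2 fold of -0.59 (SE 0.14, adjusted p = 0.0145). It lost its call without wild type cell replicate 3 (-0.56, adjusted p = 0.0506). Pro-TGG-3-5 fell from 1851, 2208 and 2495 to 1380, 1264 and 1752, a log2 fold of -0.58 (SE 0.17, adjusted p = 0.0324). This call was lost with library totals (-0.49, adjusted p = 0.0917) and without wild type cell replicate 2 (-0.57) or 3 (-0.48) or ATG7-/- cell replicate 1 (-0.54) or 2 (-0.48). Pro-AGG-3-1 had -1.07 (SE 0.31, adjusted p = 0.0277), lost without wild type cell replicate 1 (-1.15) or 3 (-0.82) or ATG7-/- cell replicate 2 (-0.92) or 3 (-0.96). Pro-AGG-2-6 and Pro-TGG-3-4, copies outside the rule for named genes, made up the count of 5. The count was 0 without wild type cell replicate 3, 2 without wild type cell replicate 2 or ATG7-/- cell replicate 2, 3 without ATG7-/- cell replicate 1, 2 with library totals and 35 with TMM factors over microRNAs, which moved the median of all features by -0.53. Among all 853 features, 48 were called lower with library totals and 542 with TMM factors over microRNAs.

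In ATG12-/- cells 1 member was called higher and 2 lower, against 7.5% and 18.2% of all 853 features, 25.7% in either direction. Groups were apart for 11 members and 48.5% of all features. Pro-TGG-1-1 rose from 499, 612 and 604 normalised reads to 751, 735 and 1071, with the third library above the rest. Its log2 fold was 0.56 (SE 0.18, adjusted p = 0.0377), and it was 0.38 (adjusted p = 0.168) without ATG12-/- cell replicate 3. That call was also lost without wild type cell replicate 1 (0.46), 2 (0.61) or 3 (0.60) or ATG12-/- cell replicate 1 (0.64). Thr-TGT-3-1 fell from 501, 480.2 and 424 to 357, 352 and 349.6, a log2 fold of -0.40 (SE 0.13, adjusted p = 0.0379), lost without 5 of the 6 libraries, all but wild type cell replicate 3. Thr-AGT-2-2 had -0.57 (SE 0.19, adjusted p = 0.0449), lost without any 1 of the 6 libraries. With library totals 3 members were called higher and 0 lower, against 104 and 62 of all 853 features.

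Whether the change from wild type to knockout differed between vesicles and cells was tested as the difference of the 2 changes, over all 18 libraries. For ATG7-/- the vesicle change was called above the cell change in 25 of 42 members, and 39 of the 42 differences were positive. Among all 905 features 26.3% were called in that direction, 28.7% in the other and 55% in either. The 25 comprised 19 of the 21 proline genes, copies counted separately, with a median difference of 0.94. They also held 6 of the 21 threonine genes, with a median of 0.41. The median over all features was 0.08. Pro-TGG-2-1 differed by 1.09 (SE 0.21, adjusted p = 0.000203) and was called in each of the 23 alternatives run, between 0.63 and 1.46. With library totals 4 members remained called in this direction and 1 in the other, against 71 and 326 of all 905 features. For ATG12-/- the difference was called positive in 13 members and negative in 1, while by sign alone 36 were positive and 6 negative. Of all features 14.4% were called positive and 12% negative, 26.4% in either direction. The count of 13 ranged from 5 to 15 when 1 library was left out: it was 5 without wild type vesicle replicate 3, 7 without wild type cell replicate 2, and 8 without ATG12-/- vesicle replicate 3 or ATG12-/- cell replicate 2. Thr-TGT-3-1 differed by 0.94 (SE 0.22, adjusted p = 0.00397), which became 0.36 with library totals, and Thr-TGT-6-1 by -0.69 (SE 0.25, adjusted p = 0.0454), though edgeR did not make that call (-0.72, adjusted p = 0.0532), nor did limma when any 1 library was left out other than wild type vesicle replicate 1 or ATG12-/- vesicle replicate 2. With library totals 0 members had a positive call for ATG12-/- and 4 had a negative call, against 20 and 268 of all 905 features.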

How the data were processed

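Small RNA was sequenced from 18 libraries, 3 in each of 6 groups, with a SMARTer small RNA kit. The submitters' processing notes name cutadapt 2.3, Bowtie2 2.3, bedtools and DESeq2, and the GRCh38 build. The deposited signal is normalised reads: in every library 100.0% of values were whole multiples (within 1e-06) of 1 step, the whole reads divided by 1 size factor. How reads that match several gene copies were assigned is not given in the sources used here.

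The deposited values were tested as log2(value + 1) with limma 3.58.1 (R 4.3.3) and an intensity trend. Features needed a value of at least 10 in at least 3 of the libraries fitted. Vesicle comparisons used the 9 vesicle libraries, cell comparisons the 9 cell libraries, and the others all 18. P-values were adjusted (Benjamini-Hochberg) over all features tested, and an adjusted p under 0.05 was a call. Fold changes are on the log2(value + 1) scale, which understates the change of low genes. The test was checked on simulated data. Anticodon shares and the threonine to proline ratio, with copies of an isodecoder averaged, were compared by exact permutation over libraries. Alternatives were other scalings, pseudocounts and filters, edgeR 4.0.16 and DESeq2 1.42.0 on the recovered reads, a replicate block, only the groups compared, 1 copy per isodecoder, and 1 library left out. The genes named are the copy with the highest mean of each tested isodecoder, plus copies said to be chosen after their values were seen. The members and lists were chosen with earlier results of these data known.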

Additional observations from a re-analysis of the deposited data

Results flagged for a closer look

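The change from wild type to ATG7-/- differed between vesicles and cells for 12 of the named genes. The test was limma's, of the vesicle change minus the cell change on the deposited log2 scale. Of all features tested, 26.3% were called in that direction and 55% in either. Of the 12 calls, 1 held in every alternative run, that of Pro-TGG-2-1. The 2 changes differed for Pro-AGG-1-1 by 0.79 (SE 0.18, adjusted p = 0.00104), Pro-AGG-2-4 by 0.83 (SE 0.25, adjusted p = 0.00799) and Pro-AGG-3-1 by 1.47 (SE 0.49, adjusted p = 0.0144). Among further genes, the difference was found for Pro-CGG-1-3 by 0.73 (SE 0.19, adjusted p = 0.00282), Pro-TGG-2-1 by 1.09 (SE 0.21, adjusted p = 0.000203) and Pro-TGG-3-5 by 1.02 (SE 0.21, adjusted p = 0.000355). The same test gave a call for Thr-CGT-1-1 by 1.60 (SE 0.54, adjusted p = 0.0159), Thr-CGT-2-1 by 0.62 (SE 0.24, adjusted p = 0.0353) and Thr-CGT-4-1 by 0.82 (SE 0.27, adjusted p = 0.0146). Also called were Thr-TGT-3-1 by 0.65 (SE 0.22, adjusted p = 0.0181), Thr-TGT-4-1 by 0.71 (SE 0.18, adjusted p = 0.0024) and Thr-TGT-5-1 by 0.57 (SE 0.22, adjusted p = 0.029). The call of Thr-CGT-2-1 was lost without wild type cell replicate 1 or 2, wild type vesicle replicate 1, ATG7-/- vesicle replicate 1 or 2, or ATG7-/- cell replicate 2. That of Thr-TGT-5-1 was lost without wild type cell replicate 1 or 2, wild type vesicle replicate 2 or 3, ATG7-/- vesicle replicate 2, or ATG7-/- cell replicate 2. Thr-TGT-3-1 was not called without wild type vesicle replicate 3 or ATG7-/- vesicle replicate 2, Pro-AGG-3-1 without wild type cell replicate 3, and Thr-CGT-1-1 without ATG7-/- cell replicate 1.

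For the ATG12 knockout 7 named genes differed in this way, and 0 of these 7 limma calls held in every alternative run. Of all features tested, 14.4% were called higher and 12% lower. The vesicle and cell changes differed for Pro-AGG-2-4 by 0.83 (SE 0.25, adjusted p = 0.0179), Pro-TGG-2-1 by 0.63 (SE 0.21, adjusted p = 0.031) and Thr-AGT-2-2 by 0.74 (SE 0.27, adjusted p = 0.0449). A call was also made for Thr-TGT-3-1 by 0.94 (SE 0.22, adjusted p = 0.00397), Thr-TGT-4-1 by 0.57 (SE 0.18, adjusted p = 0.0247) and Thr-TGT-5-1 by 0.81 (SE 0.22, adjusted p = 0.00893). The last was Thr-TGT-6-1 by -0.69 (SE 0.25, adjusted p = 0.0454). The call of Pro-AGG-2-4 was lost without wild type vesicle replicate 3 or ATG12-/- vesicle replicate 3. That of Thr-TGT-4-1 was lost without wild type cell replicate 1 or 2, wild type vesicle replicate 2 or 3, ATG12-/- vesicle replicate 2, or ATG12-/- cell replicate 1. Pro-TGG-2-1 was called only without wild type cell replicate 1, wild type vesicle replicate 1, ATG12-/- vesicle replicate 2 or ATG12-/- cell replicate 3, among the fits with 1 library left out. Thr-AGT-2-2 kept its call without wild type cell replicate 3, wild type vesicle replicate 1 or ATG12-/- vesicle replicate 2 and lost it without any other of the 12 libraries compared. Thr-TGT-6-1 kept it without wild type vesicle replicate 1 or ATG12-/- vesicle replicate 2 and lost it without any other of the 12 libraries compared.

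Vesicles of the 2 knockouts differed from each other, ATG12-/- over ATG7-/-, for Thr-TGT-2-1 by 0.43 (SE 0.15, adjusted p = 0.0344), Thr-TGT-4-1 by 0.33 (SE 0.13, adjusted p = 0.0484) and Thr-TGT-5-1 by 0.35 (SE 0.14, adjusted p = 0.0479). Of all features tested, 26.6% were called higher and 49.9% in either direction, and 0 of these 3 limma calls held in every alternative run. Those of Thr-TGT-4-1 and Thr-TGT-5-1 were lost when any 1 of the 6 knockout vesicle libraries was left out, and that of Thr-TGT-2-1 when any 1 other than ATG7-/- vesicle replicate 3 was.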

How the results depend on the processing

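Of the 19 named genes called between wild type vesicles and cells, 8 kept their call and direction in every alternative: Pro-AGG-2-4, Thr-AGT-4-1, Thr-AGT-6-1, Thr-CGT-3-1, Thr-CGT-6-1, Thr-TGT-3-1, Thr-TGT-5-1 and Thr-TGT-6-1. In ATG7-/- vesicles against wild type 2 of 10 did, Pro-TGG-2-1 and Thr-TGT-6-1, and in ATG12-/- vesicles 2 of 10, Thr-TGT-4-1 and Thr-TGT-5-1. For the vesicle change minus cell change 1 of 12 did for ATG7-/- and 0 of 7 for ATG12-/-, as did 0 of 3 in ATG12-/- against ATG7-/- vesicles. Where a call or direction changed, the cause was not tested. Library totals shifted the median of all features by -1.51 between vesicles and cells, by -0.37 in ATG7-/- vesicles and by -0.35 in ATG12-/- vesicles, and the share of calls that were higher moved from 47.6% to 19.4%, from 53.7% to 31.8% and from 51.8% to 22.2%. Genes with few reads could not be tested: 4 genes never passed the filter.

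With library totals, members called higher and lower numbered 4 and 33 for wild type vesicles against cells, 3 and 3 for ATG7-/- vesicles, 5 and 3 for ATG12-/- vesicles, 3 and 0 for ATG12-/- cells, 4 and 1 for the ATG7-/- vesicle change minus cell change and 0 and 4 for that of ATG12-/-, and 2 were lower in ATG7-/- cells. Over all features the counts, in the same order, were 151 and 629, 148 and 318, and 87 and 305. They continued with 104 and 62, 71 and 326, and 20 and 268, and 48 features were lower in ATG7-/- cells. The direction between wild type vesicles and cells turned for Pro-AGG-1-1 (-0.71), Pro-CGG-2-1 (-1.145), Pro-TGG-2-1 (-0.11), Pro-TGG-3-4 (-0.74), Pro-TGG-3-5 (-0.73), Thr-AGT-1-1 (-1.04), Thr-AGT-2-2 (-0.32), Thr-AGT-3-1 (-0.69), Thr-AGT-5-1 (-0.84), Thr-CGT-2-1 (-0.56), Thr-CGT-4-1 (-0.94), Thr-CGT-5-1 (-1.27) and Thr-TGT-2-1 (-1.36). In ATG7-/- vesicles it turned for Thr-AGT-1-1 (-0.029), Thr-TGT-2-1 (-0.14) and Thr-TGT-3-1 (-0.059), and for the ATG12-/- vesicle change minus cell change for Thr-TGT-4-1 (-0.012). TMM factors from microRNAs gave 1 higher and 2 lower in ATG7-/- vesicles, 3 and 2 in ATG12-/- vesicles, 1 higher in ATG12-/- against ATG7-/- vesicles, 35 lower in ATG7-/- cells, 0 higher and 8 lower in ATG12-/- cells, and 0 lower for the ATG12-/- vesicle change minus cell change. Over all features these counts were, in the same order, 129 and 303, 53 and 288, 215, 542, 18 and 298, and 86. These factors turned Pro-CGG-1-3 (0.23) and Thr-TGT-4-1 (0.17) between wild type vesicles and cells, and Thr-AGT-1-1 (-0.022), Thr-TGT-2-1 (-0.14) and Thr-TGT-3-1 (-0.052) in ATG7-/- vesicles. TMM factors over all features turned Pro-CGG-1-3 (0.060) and Thr-TGT-4-1 (0.0039) between wild type vesicles and cells, and gave 2 lower in ATG7-/- cells, 2 higher and 0 lower in ATG12-/- cells, 1 lower for the ATG7-/- vesicle change minus cell change, and 2 higher and 2 lower for that of ATG12-/-.

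With 1 copy per isodecoder, which leaves fewer genes to count, 5 were lower between wild type vesicles and cells, 9 higher in ATG7-/- vesicles, 9 higher in ATG12-/- vesicles, 3 lower in ATG7-/- cells, and 12 and 6 higher for the vesicle change minus cell change of ATG7-/- and ATG12-/-. Without the filter, 0 were lower in ATG12-/- vesicles, 0 higher in ATG12-/- against ATG7-/- vesicles, 3 lower in ATG7-/- cells, 0 higher and 0 lower in ATG12-/- cells, and 8 higher and 0 lower for the ATG12-/- vesicle change minus cell change. A minimum of 50 left Thr-TGT-6-1, the gene called lower, untested in vesicles, so 0 were lower in either knockout's vesicles. The same minimum gave 2 higher and 1 lower in ATG12-/- cells. With only the groups compared, 2 were lower in ATG7-/- cells and 2 higher in ATG12-/- cells. The lower call of the ATG12-/- vesicle change minus cell change went to 0 with a pseudocount of 5, edgeR and DESeq2, DESeq2 gave 1 lower in ATG12-/- cells, and edgeR (0.0035) and DESeq2 (0.0039) turned Pro-CGG-1-3 between wild type vesicles and cells.

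The libraries were not treated as paired by replicate number: no pair of groups had all 3 same-number correlations above 0.1, and the lowest was -0.225. Whether libraries with the same number came from the same culture was not tested. With the replicate block, 0 members were higher in ATG12-/- against ATG7-/- vesicles, 0 lower in ATG12-/- cells and 0 lower for the ATG12-/- vesicle change minus cell change. The Thr-AGT share in knockout vesicles (-0.28) then had an exact permutation adjusted p of 0.0972. The block leaves fewer than 84 arrangements and raises the smallest possible p. The loss of that call therefore cannot tell a weaker difference from a coarser test. With every gene summed, the Thr-AGT share in knockout vesicles was -0.20 and the Pro-AGG share 0.14. With the mean log2 over isodecoders, the threonine to proline ratio between vesicles and cells was -0.00079, in knockout vesicles the Thr-AGT share was -0.090, the Pro-AGG share -0.0064, the Pro-CGG share -0.15 and the Pro-TGG share 0.11, and in knockout cells the Pro-TGG share was 0.11.

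With 1 library left out, the counts ranged from 0 to 1 higher and 0 to 1 lower in ATG12-/- cells, 0 to 6 lower in ATG7-/- cells, 0 to 1 higher in ATG12-/- against ATG7-/- vesicles, 0 to 2 lower in ATG12-/- vesicles, 0 to 1 lower for the ATG7-/- vesicle change minus cell change, and 5 to 15 higher and 0 to 2 lower for that of ATG12-/-. The knockout shares in cells ranged from -0.051 to 0.036 for Pro-AGG, -0.029 to 0.052 for Pro-CGG and -0.026 to 0.014 for Pro-TGG, and those in vesicles from -0.19 to -0.10 for Pro-CGG and -0.31 to -0.23 for Thr-AGT. Between wild type vesicles and cells Pro-CGG-1-3 ranged from -0.095 to 0.094, Thr-TGT-1-1 from -0.68 to 0.21 and Thr-TGT-4-1 from -0.17 to 0.014, and Thr-TGT-1-1 in ATG12-/- vesicles from -0.031 to 0.86.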
